A study of Mus musculus with 3 samples.

Results

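The Notch genes described here are the ligand Jag1, the receptors Notch1, Notch2 and Notch3, and the targets Hes1, Hey1, Hey2, Heyl and Nrarp. These 9 genes were chosen by symbol as members of the pathway, and all 9 are listed among the 24698 genes of the merged count table. They were followed through a Leydig cell differentiation culture in which the γ-secretase inhibitor DAPT was added with the differentiation medium. Adult C57BL/6 male mice of 8 to 12 weeks gave testis cells sorted as Sca1+/cKit-, which were plated on Matrigel, recovered for 18 h in 10% FBS and expanded for 3 days with the growth factors Fgf2, PdgfAA and PdgfBB at 10 ng/ml each and the Smoothened agonist SAG at 0.5 uM. The differentiation medium held the same factors with 5 mM LiCl2 and 10 uM DAPT added. Single cells were profiled by Drop-seq, a droplet method that counts unique molecular identifiers (UMIs, 1 per captured transcript) near the 3′ end of each gene. A single library was made at each of day 4, day 7 and day 14.

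Day 4 was taken as the end of expansion, before DAPT, and days 7 and 14 as 3 and 10 days in the medium with DAPT, following the order of the culture steps in the labels, which give 1 protocol for all 3 days. No library without DAPT was analysed here at day 7 or day 14. DAPT, LiCl2, time in culture, cell make-up and the library itself therefore cannot be told apart. The kept cells numbered 2980 on day 4, 2171 on day 7 and 973 on day 14, with 12677110, 11627440 and 5324400 UMIs in all and medians of 2886.5, 3285 and 3272 UMIs per cell. No cell barcode was shared between libraries. With 1 library per day there is no replicate error and no test between days, and every interval given is an exact 95% interval that covers counting error only.

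Notch receptors are cut after they bind a ligand on a neighbouring cell, last of all by γ-secretase, and the freed intracellular domain joins the DNA-binding protein RBPJ to switch on target genes. The best known targets are the Hes and Hey families of transcriptional repressors, together with Nrarp, which encodes a feedback inhibitor of the pathway. DAPT blocks the γ-secretase cut, and in the testis Notch activity is known to hold back the differentiation of interstitial progenitors into Leydig cells, the source of testosterone.

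The labelled cell types were checked by their markers. Cyp11a1, the enzyme that starts steroid synthesis, was at 19.5, 56.8 and 2089 CPM (UMIs per 1000000 UMIs of the day) on days 4, 7 and 14, and Acta2, the smooth muscle actin of myoid cells, was at 3162, 2831 and 97.1 CPM. Ly6a, which encodes Sca1, was at 523, 64.2 and 358 CPM, and Kit had 10, 1 and 11 UMIs. Of other cell types known for Notch genes, the endothelial markers summed to 95.4, 125 and 38.5 CPM with 5, 5 and 2 of 10 genes at 20 UMIs or more, and the defining genes Cldn5 and Vwf had at most 2 UMIs on any day while Cdh5 alone gave 77.7, 111 and 22.3 CPM. The mural cell markers summed to 129, 147 and 22.0 CPM with 4, 4 and 2 of 10 genes at 20 UMIs or more. Most of that sum was Cspg4 (109, 125 and 13.1 CPM), whereas Rgs5, a defining pericyte gene, had 4, 1 and 1 UMIs. Sertoli cell markers summed to 56.6, 52.8 and 53.9 CPM, germ cell markers to 143, 26.2 and 55.2 CPM, and macrophage markers to 12.9, 29.8 and 241 CPM. Most of the macrophage sum of day 14 was Lyz2 alone (200 CPM), whereas C1qa and C1qb had at most 3 UMIs each on that day. The part of these other cells in the levels below was not tested.

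In the GRCm38 genome with the GENCODE M21 annotation, the 9 genes are protein coding and lie on 6 chromosomes. Jag1 spans chr2:137081456-137116644 on the minus strand, Heyl chr4:123233556-123249875 on the plus strand and Hes1 chr16:30064384-30067796 on the plus strand. Notch1 (chr2:26457903-26516663), Notch3 (chr17:32120820-32166852), Hey1 (chr3:8663359-8667256) and Hey2 (chr10:30832359-30842801) are on the minus strand, and Notch2 (chr3:98013527-98150361) and Nrarp (chr2:25180758-25183339) on the plus strand. Exons of Notch1 overlap those of 0610009E02Rik on the other strand, which had 74 UMIs over the 3 days, and strand use in counting is not given in the sources used here, so the low counts of Notch1 are uncertain to that extent.

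Promoters of 6 of the 9 genes were found in the RefSeq set for GRCm38.p6, and those of Hes1, Hey1 and Heyl were not. The 250 bases before the start site were searched on both strands for TGGGAA, the core of the site that RBPJ binds, which occurs in 21.6% of 32851 promoter windows of that length. Of the 6 genes, 1 held a match, Hey2, at 207 bases upstream of its start. That window and the window of Nrarp, which had no match, are shown because both genes are textbook RBPJ targets and both were at the limit of detection in this culture. Capitals mark the match, here on the reverse strand as TTCCCA.
Hey2, chr10:30842784-30843033, minus strand: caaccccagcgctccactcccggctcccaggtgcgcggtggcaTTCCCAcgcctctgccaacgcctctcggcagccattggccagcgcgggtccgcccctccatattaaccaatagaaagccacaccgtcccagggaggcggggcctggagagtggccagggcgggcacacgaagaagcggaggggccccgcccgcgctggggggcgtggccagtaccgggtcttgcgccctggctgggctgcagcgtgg
Nrarp, chr2:25180508-25180757, plus strand: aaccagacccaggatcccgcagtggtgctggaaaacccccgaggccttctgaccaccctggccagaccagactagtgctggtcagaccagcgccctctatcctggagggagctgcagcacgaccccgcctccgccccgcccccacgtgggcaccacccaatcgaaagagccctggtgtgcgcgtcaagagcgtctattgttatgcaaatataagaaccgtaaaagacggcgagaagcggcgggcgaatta

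Among the members, Heyl, Hes1 and Jag1 were lower on each later day, Notch2 was not, and the other 5 genes were rare. Jag1, a membrane ligand that activates Notch receptors on adjacent cells, had 603 UMIs (47.6 CPM, 43.8–51.5) on day 4, 415 UMIs (35.7 CPM, 32.3–39.3) on day 7 and 86 UMIs (16.2 CPM, 12.9–19.9) on day 14. The 3 intervals did not overlap. Day 4 was 1.33-fold above day 7 (1.17–1.51), day 7 was 2.21-fold above day 14 (1.75–2.82), and day 4 was 2.94-fold above day 14 (2.35–3.74).

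Receptor transcripts were fewer. Notch2, the receptor with the most UMIs here, had 188 UMIs (14.8 CPM, 12.8–17.1) on day 4, 215 UMIs (18.5 CPM, 16.1–21.1) on day 7 and 101 UMIs (19.0 CPM, 15.5–23.0) on day 14. Its level on day 7 was 1.25 times that of day 4 (1.02–1.52), and on day 14 it was 1.28 times that of day 4 (0.994–1.64), an interval that includes 1. Notch1 had 54 UMIs (4.26 CPM, 3.20–5.56), 40 UMIs (3.44 CPM, 2.46–4.68) and 10 UMIs (1.88 CPM, 0.901–3.45) on days 4, 7 and 14. Day 4 was 2.27-fold above day 14 for Notch1 (1.14–5.00), which rests on the 10 UMIs of day 14. Notch3, a receptor typical of mural and smooth muscle cells, had 17, 13 and 7 UMIs, or 1.34 (0.781–2.15), 1.12 (0.595–1.91) and 1.31 (0.529–2.71) CPM. All 3 intervals overlapped, and a difference between days was not detectable for Notch3 with so few UMIs.

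Among the targets, Hes1 and Heyl were well detected and the other 3 were not. Hes1, a repressor that also answers to signals other than Notch, had 1181 UMIs (93.2 CPM, 87.9–98.6) on day 4, 628 UMIs (54.0 CPM, 49.9–58.4) on day 7 and 159 UMIs (29.9 CPM, 25.4–34.9) on day 14. Each interval lay below that of the day before, with folds of 1.72 (1.56–1.90) for day 4 over day 7, 1.81 (1.52–2.17) for day 7 over day 14 and 3.12 (2.64–3.70) for day 4 over day 14. Heyl, a Hey family repressor, had 771 UMIs (60.8 CPM, 56.6–65.3), 252 UMIs (21.7 CPM, 19.1–24.5) and 21 UMIs (3.94 CPM, 2.44–6.03) on the same days. These were the largest folds among the 6 members with at least 20 UMIs, with folds of 2.81 (2.43–3.25), 5.50 (3.52–9.03) and 15.4 (10.0–25.1) in the same order. Hey1 had 3, 1 and 0 UMIs, Hey2 had 1, 0 and 0, and Nrarp had 0 UMIs on every day. The limit of detection was set at 3 counts per library, or 0.237, 0.258 and 0.563 CPM on days 4, 7 and 14. None of these 3 targets exceeded it, so no direction can be read for them.

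**Figure D1:**
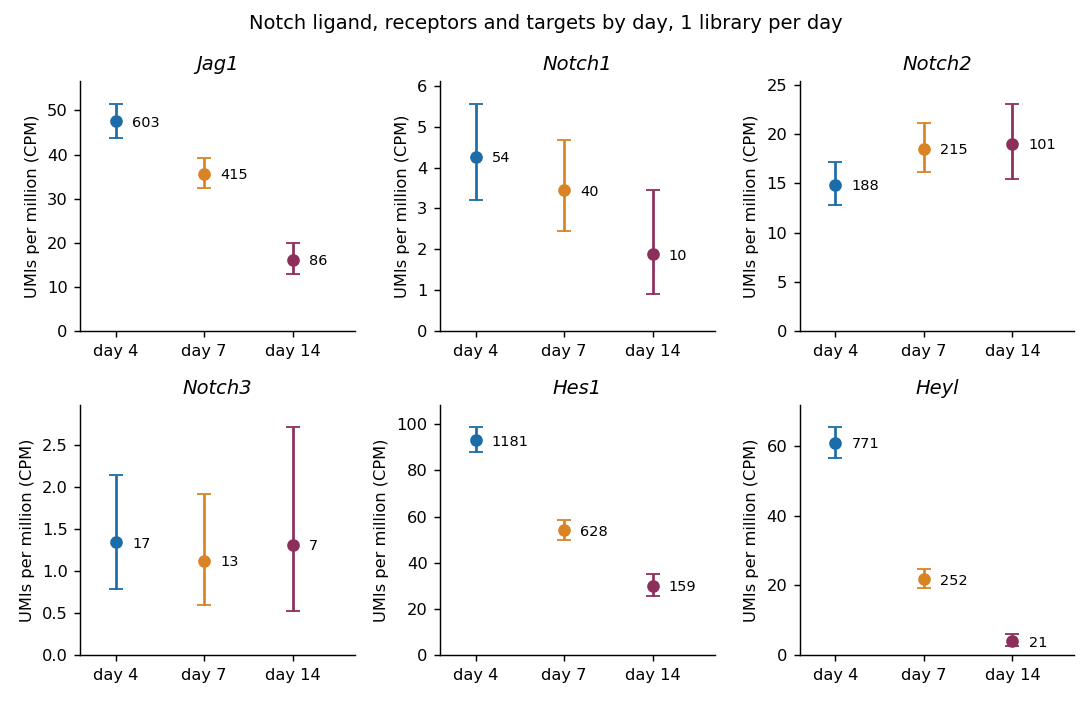
Level of the ligand Jag1, the receptors Notch1 to Notch3 and the targets Hes1 and Heyl on each day, in CPM (linear axes from 0). Points are 1 library each, bars are exact 95% Poisson intervals and the number beside a point is its UMIs; Heyl goes from 771 to 21 UMIs and Notch2 stays between 14.8 and 19.0 CPM.

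A gene was counted as past 2-fold when the log2 ratio of (CPM + 1) was at least 1 in size, among genes with at least 20 UMIs over the 2 days compared, and 6 of the 9 members had that many in each comparison. Between day 4 and day 7, 1 of these 6, Heyl, was past 2-fold lower and none was past 2-fold higher, where 2.76% of 12954 genes were past 2-fold lower and 2.25% higher. From day 7 to day 14, Jag1 and Heyl were lower, 2 of 6, beside 14.0% lower and 10.1% higher of 12656 genes. For day 14 over day 4, Jag1, Hes1 and Heyl were lower, 3 of 6, beside 15.3% lower and 13.5% higher of 12712 genes. The call of Jag1 for day 14 over day 7 was lost with another scaling, with equal weight per cell and with a larger pseudocount, at log2 ratios of -0.98, -0.82 and -0.94 against -1.10.

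The median log2 ratio of the 6 members was -0.32, -0.73 and -1.19 for day 7 over day 4, day 14 over day 7 and day 14 over day 4. Over all genes compared the median was 0.09, -0.13 and -0.05. The members were chosen with earlier results of these data known, so the medians are only set side by side. The log2 ratio of Heyl was -1.45 for day 7 over day 4, with 1.22% of genes lower still, and -3.64 for day 14 over day 4, with 0.645% of genes lower still. Hes1 stood at -0.78 and -1.61 in these comparisons, and Jag1 at -0.40 and -1.50.

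**Figure D2:**
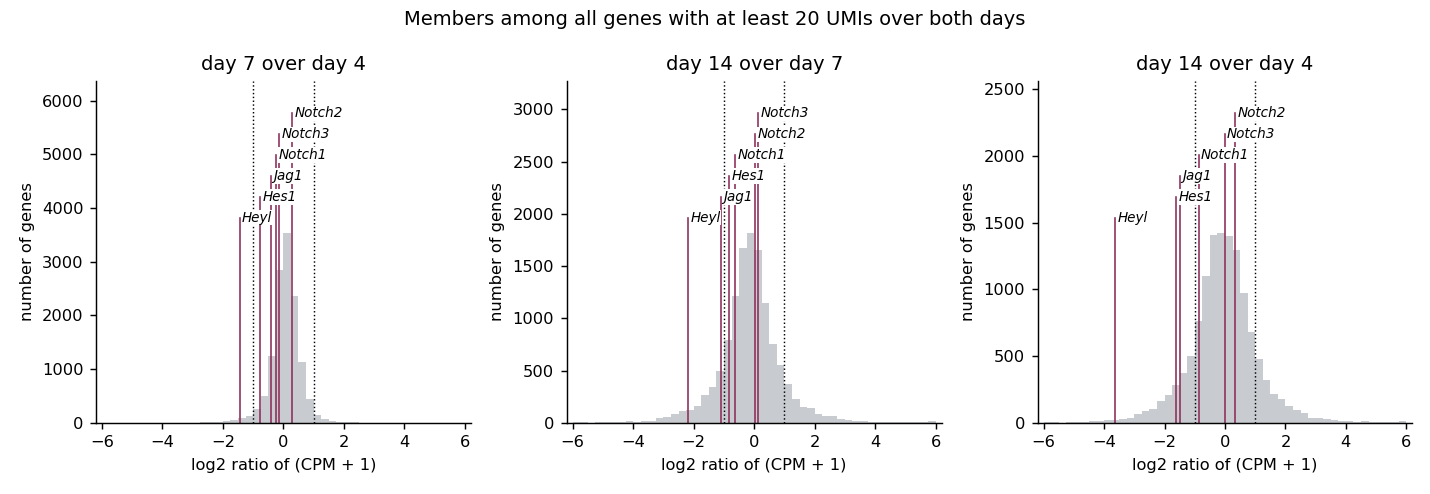
Number of genes (grey bars) by log2 ratio of (CPM + 1) for the 3 pairs of days, with values beyond 6 on either side drawn in the outermost bars, and the 6 members with at least 20 UMIs as labelled lines. Dotted lines mark 2-fold; Heyl lies outside them in every panel, at -1.45, -2.20 and -3.64, while Notch2 and Notch3 stay near 0.

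Shares of cells with a UMI gave the same order of days. After each cell was thinned to 1500 UMIs, which left out 753, 429 and 179 cells, Heyl was seen in 9.03%, 2.58% and 0.882% of cells on days 4, 7 and 14. The shares before thinning were 17.2%, 7.97% and 2.06%. Hes1 was seen in 12.3%, 7.35% and 4.79% of thinned cells, and Jag1 in 6.65%, 5.11% and 1.76%. Notch2 went from 1.93% to 2.58% and 2.90%, with intervals that overlap between all days. No cell type that must lack these genes was at hand to set a floor of free RNA, and Heyl was seen in 0.504% of thinned Leydig-like cells of day 14, the class with the least Heyl.

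Cells were then split into states, since the make-up of the culture differed widely between days. Clusters were built without the 9 members and without the other pathway genes and were named from marker lists. Of day 4 cells, 54.5% were differentiating myofibroblast-like, 19.6% proliferating progenitor-like and 20.3% fell in an unnamed cluster led by Ifitm1, Lrrc17, Igfbp3 and Penk. That cluster matched the interstitial progenitor list best (median log2 ratio over other cells 0.451), with the differentiating myofibroblast list close behind (0.380). A margin of 0.1 was required for a name, so it was left unnamed. Of day 7 cells, 59.2% were ECM myofibroblast-like, 21.9% proliferating progenitor-like and 12.2% interstitial progenitor-like. Of day 14 cells, 54.6% were differentiating Leydig-like and 42.4% Leydig-like. The state markers were picked by the study from these libraries, so the names describe the cells and support nothing about the members.

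The proliferating progenitor-like cells, with 585 cells on day 4 and 475 on day 7, were the class with the most cells on the day when it had fewer, among the 3 classes with at least 50 cells on both days. In them Heyl had 141 UMIs (49.1 CPM, 41.3–57.9) on day 4 and 24 UMIs (8.95 CPM, 5.73–13.3) on day 7, a 5.48-fold difference (3.54–8.84). Hes1 was at 99.5 and 60.0 CPM in the same cells, 1.66-fold apart (1.36–2.02). Jag1 was at 36.9 and 31.3 CPM and Notch2 at 13.6 and 16.8 CPM, both with ratio intervals that include 1. Of 5 members with at least 20 UMIs in this class, 1, Heyl, was past 2-fold lower and none higher, beside 2.74% lower and 3.24% higher of 10345 genes. The class was made of a mitotic cluster led by Cenpf and Cenpa and a cluster led by the S-phase genes Ccne2 and Hells. Heyl was at 56.0 and 10.3 CPM on days 4 and 7 in the mitotic cluster, and at 37.7 and 7.57 CPM in the other one. The class was named by proliferation markers, so it may hold cycling cells of different states on the 2 days, which was not tested.

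The interstitial progenitor-like class had few Heyl UMIs and held partly different cells on the 2 days. The unnamed cluster of day 4, whose best list was also interstitial progenitor, was not counted in it, so its values depend on the naming rule. At the finer cluster resolution most of its day 7 cells left the class, which then held 84 cells of day 4 and 34 of day 7, and at the coarser one no class of that name was left. At the main resolution its 87 cells of day 4 had 6 Heyl UMIs (22.2 CPM, 8.16–48.4) and its 264 cells of day 7 had 18 (17.0 CPM, 10.1–26.9), a ratio of 0.765 (0.291–2.35). In the differentiating myofibroblast-like cells, of which only 58 were left on day 7, Heyl was at 59.3 and 18.7 CPM on days 4 and 7, the latter from 4 UMIs. Hes1 in these cells was at 88.3 and 28.1 CPM, the latter from 6 UMIs. Heyl and Hes1 were past 2-fold lower in that class, where 14.3% of 10368 genes were. Notch1, with 26 and 0 UMIs, also met the rule, but its ratio interval reached 4.71 and no direction can be read from it.

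When each cell was instead given the state whose markers had the highest mean score in it, 6 states had at least 50 cells on both days. The cells of a state then came from different clusters on the 2 days, so these values are not changes within 1 cluster. On day 4, for example, 186 cells were ECM myofibroblast-like against 36 in the clusters of that name, and 88 were differentiating Leydig-like against 2. Heyl had 20 UMIs or more in 5 of the states and was past 2-fold lower on day 7 in all 5, with ratios from 0.151 to 0.467. Of all genes, 3.08% were past 2-fold lower in ECM myofibroblast-like, 3.13% in proliferating, 3.71% in differentiating Leydig-like, 5.71% in differentiating myofibroblast-like and 7.22% in interstitial progenitor-like cells by this assignment. Hes1 was lower in all 6 with every interval below 1, at ratios from 0.111 to 0.617, and past 2-fold in 2 of them, differentiating Leydig-like and Leydig-like cells (9.52% of genes lower in the latter, where Hes1 had 23 and 2 UMIs). Jag1 had intervals below 1 in 2 of 5 states, and Notch2 and Rbpj in none of 5. Interstitial progenitor-like cells by this assignment numbered 425 on day 4, most of them outside the cluster of that name, and had Heyl at 67.3 and 20.2 CPM on days 4 and 7.

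**Figure D3:**
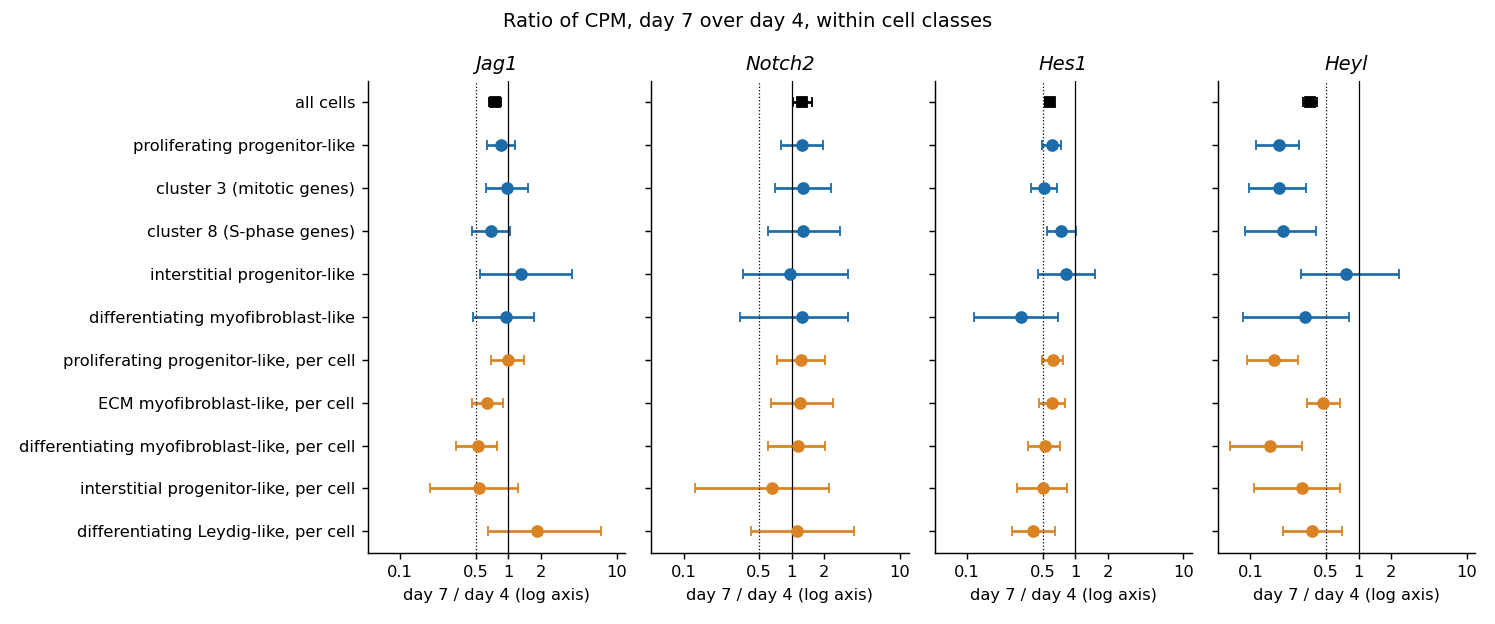
Ratio of CPM on day 7 over day 4 (log axis, exact 95% intervals) for Jag1, Notch2, Hes1 and Heyl in all cells (black), within cluster-based classes and clusters (blue) and within classes given cell by cell (orange), 1 library per day. The solid line marks 1 and the dotted line 0.5; Heyl lies below 0.5 in every row except the cluster-based interstitial progenitor-like class, at 0.765, and Notch2 intervals include 1 in every row but that of all cells.

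Across the 10 pairs of class and day with at least 50 cells, Heyl was highest in the unnamed cluster of day 4 (85.5 CPM, 74.8–97.3), above the differentiating myofibroblast-like cells of day 4 (59.3 CPM) beyond counting error. Those did not differ beyond their intervals from the proliferating cells of day 4 (49.1 CPM), which in turn stood above the ECM myofibroblast-like cells of day 7 (27.6 CPM). From there down to 7.35 CPM in the differentiating Leydig-like cells of day 14, neighbours in the order were not separated by counting error. Leydig-like cells of day 14 came last (2.16 CPM, 0.868–4.45). The first place of the unnamed cluster holds at the main resolution only. At the coarser and the finer resolution no such cluster was left. The day 4 myofibroblast-like class then held 2218 and 2219 cells in place of 1623, with Heyl at 67.1 CPM at both.

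Hes1 had its 3 highest levels in the large classes of day 4 (106, 99.5 and 88.3 CPM), followed by a break to 60.0 CPM in proliferating cells of day 7. No other neighbours in its order were separated by counting error, down to 17.3 CPM in Leydig-like cells. Jag1 ran from 54.0 CPM in differentiating myofibroblast-like cells of day 4 to 15.7 CPM in Leydig-like cells, and Notch2 from 26.2 CPM in differentiating Leydig-like cells of day 14 to 13.6 CPM in Leydig-like cells. For Jag1 and Notch2 no pair of neighbours was separated.

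**Figure D4:**
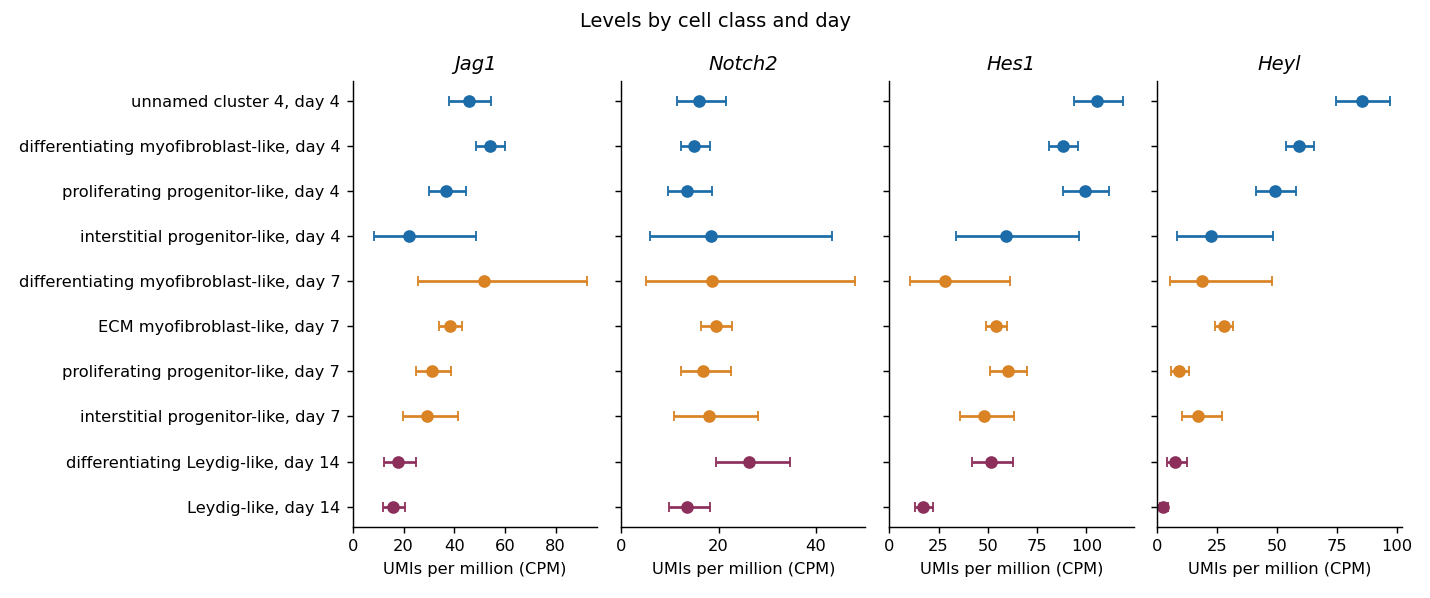
Level (CPM, linear axes from 0) of Jag1, Notch2, Hes1 and Heyl in the 10 pairs of class and day with at least 50 cells, with exact 95% Poisson intervals and colours for day 4 (blue), day 7 (orange) and day 14 (purple). Heyl and Hes1 are highest in the large classes of day 4, up to 85.5 and 106 CPM, and lowest in Leydig-like cells of day 14, at 2.16 and 17.3 CPM. The interstitial progenitor-like class of day 4 lies lower than those large classes, at 22.2 and 59.3 CPM.

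Within a day, classes differed in some members, and the pairs compared here were chosen after the levels were known. On day 14, Leydig-like cells (413 cells, median 5584 UMIs) had less Hes1 than differentiating Leydig-like cells (531 cells, median 2208 UMIs), 17.3 against 51.4 CPM, a ratio of 0.336 (0.237–0.471). Notch2 was at 13.6 against 26.2 CPM, a ratio of 0.517 (0.337–0.791), and Heyl at 2.16 against 7.35 CPM from 7 and 14 UMIs (ratio 0.294, 0.10–0.778). Jag1 was at 15.7 against 17.8 CPM, with an interval of the ratio from 0.560 to 1.40. Hes1 and Heyl were past 2-fold lower, beside 5.69% of genes lower and 4.02% higher in that pair. On day 7, Heyl was higher in the ECM myofibroblast-like class (27.6 CPM) than in the proliferating one (8.95 CPM), a ratio of 3.09 (2.02–4.93) where 2.56% of genes were past 2-fold higher, whereas Hes1 was at 54.1 and 60.0 CPM. On day 4, Jag1 was at 54.0 CPM in differentiating myofibroblast-like cells and 36.9 CPM in proliferating cells, a ratio of 1.46 (1.18–1.84).

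Cells with a Notch3 UMI were compared with the rest for the 5 targets summed, to describe whether transcripts of this receptor and of targets sat in the same cells. The other receptors were not compared in this way, though Notch2 was seen in 173 and 192 cells on days 4 and 7. With so few Notch3 cells the values cannot decide the question. Only 17, 13 and 7 cells had a Notch3 UMI, with medians of 5631, 5099 and 17305 UMIs against 2881, 3245.5 and 3242 in the others. The ratio of target CPM was 1.14 (0.707–1.75) on day 4, 1.49 (0.791–2.57) on day 7 and 0.820 (0.168–2.44) on day 14. Each of these intervals includes 1. Heyl alone was at 69.2 CPM in the day 7 cells with a Notch3 UMI, from 8 UMIs, and at 21.2 CPM in the others. The ratio was 3.27 (1.39–6.54). Within ECM myofibroblast-like cells, which held 12 of these 13 cells and all 8 UMIs, the ratio was 2.69 (1.15–5.41). Both intervals treat UMIs as independent, yet the most Heyl UMIs in 1 cell of day 7 was 7. How the 8 UMIs were spread over these cells was not tested, so no link is read from them. The day 7 ratio for Hes1 alone had an interval that includes 1. The ratio for Heyl was 1.81 on day 4 (0.958–3.11), and on day 14 the cells with a Notch3 UMI held 0 of the 21 Heyl UMIs. Thinned to 1500 UMIs, 6, 3 and 0 such cells were left on the 3 days and they held 0 target UMIs.

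The genes whose levels were most like those of a member over the 10 class and day sums were listed for the 4 members with at least 200 UMIs. For Heyl they were Ddb1, Ano6 and Tcf25 (Pearson r of 0.957, 0.953 and 0.953), for Hes1 Jak1, Armcx4 and Egr2 (0.971, 0.946 and 0.937), and for Jag1 Arf4, Gfpt2 and Irgm1 (each 0.982). Notch2 had Nudt3, Fam120b and Tsc22d3 (0.897, 0.830 and 0.822). Heyl had r of 0.832 with Hes1, 0.795 with Jag1 and -0.197 with Notch2. The 10 sums share 3 libraries, so these values describe the sums and carry no test.

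Of 49 further pathway genes, 47 were in the table, and 39, 37 and 37 of them had enough UMIs in the 3 comparisons. None of 39 was past 2-fold between day 4 and day 7 in either direction, beside the 2.76% lower and 2.25% higher of all genes, although the added pseudocount understates low genes such as Aph1c, with a CPM ratio of 2.97 (1.45–6.58). For day 14 over day 7, 6 of 37 were higher and 6 lower, where 10.1% of all genes were higher and 14.0% lower. For day 14 over day 4, 8 of 37 were higher and 5 lower, where 13.5% of all genes were higher and 15.3% lower.

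The γ-secretase complex, the target of DAPT, has subunits encoded by Psen2, Ncstn, the Aph1 genes and Psenen, among others. Aph1a was at 12.5, 12.5 and 12.4 CPM on days 4, 7 and 14, with an interval that includes 1 for day 14 over day 4. Psen2 was at 14.6, 18.7 and 38.9 CPM, 2.66 times higher on day 14 than on day 4 (2.17–3.27), and Psenen at 71.2, 112 and 164 CPM, 2.30 times higher (2.10–2.53). Ncstn was at 38.9, 44.3 and 77.6 CPM (1.99 times, 1.75–2.28) and Aph1b at 10.9, 14.9 and 17.7 CPM (1.62 times, 1.23–2.12). Aph1c was at 0.868, 2.58 and 20.7 CPM from 11, 30 and 110 UMIs, 23.8 times higher on day 14 (12.8–49.1). Aph1b and Aph1c are close paralogs, so their counts may be split between them in ways not known here. Of the full list of 10 cleavage genes, 3 were past 2-fold higher on day 14 than on day 4 and none lower, where 13.5% of all genes were higher and 15.3% lower.

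In the nuclear complex, Rbpj, the DNA-binding partner of the Notch intracellular domain, was at 41.3, 41.6 and 20.5 CPM. Its level did not differ between day 4 and day 7 beyond counting error (ratio 1.01, 0.890–1.14), and it was 2.02-fold lower on day 14 than on day 4 (1.64–2.5), just short of a call on the log2(CPM + 1) scale (-0.98). The coactivator Maml2 was at 15.9, 11.3 and 3.94 CPM on days 4, 7 and 14, past 2-fold lower on day 14 than on day 4. None of the 10 genes of that list was past 2-fold higher in any comparison, and 2 were lower on day 14 than on day 4. Of all genes, 13.5% were higher and 15.3% lower on day 14 than on day 4. Among receptors and ligands outside the members, Notch4, a receptor of endothelial cells, was at 8.20, 8.34 and 2.07 CPM from 104, 97 and 11 UMIs. It was past 2-fold lower on day 14 than on day 4, by 3.97-fold (2.13–8.20). The ligands Dll1, Dll3, Dll4 and Jag2 had at most 3 UMIs on any day.

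Of 12 modulators with enough UMIs, 4 were past 2-fold higher on day 14 than on day 4 and none lower. In that comparison 13.5% of all genes were higher and 15.3% lower. Dtx4, which encodes a Deltex ubiquitin ligase, was at 9.70, 8.86 and 83.2 CPM, 8.58 times higher on day 14 than on day 4 (7.01–10.6), and its relatives Dtx1 and Dtx3 were 7.25 (5.12–10.4) and 2.36 (1.76–3.15) times higher. Fbxw7, whose product marks the Notch intracellular domain and other proteins for degradation, was at 34.5, 30.1 and 135 CPM, 3.92 times higher (3.47–4.42). Lfng, which encodes a sugar transferase that modifies Notch receptors, had 12, 27 and 0 UMIs. On day 14 Fbxw7 was at 186 CPM in Leydig-like and 59.3 CPM in differentiating Leydig-like cells, and Dtx4 at 87.3 and 77.1 CPM. Hes6, Myc and Ccnd1 were listed as further targets, and whether they answer to Notch in these cells was not tested. Hes6 was at 17.8, 25.2 and 55.0 CPM, Myc at 48.3, 31.7 and 13.9 CPM and Ccnd1, the G1 cyclin, at 208, 307 and 75.7 CPM. Proliferation markers as a list summed to 1100, 1003 and 163 CPM on the same days, beside the lower Myc and Ccnd1 of day 14.

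**Figure D5:**
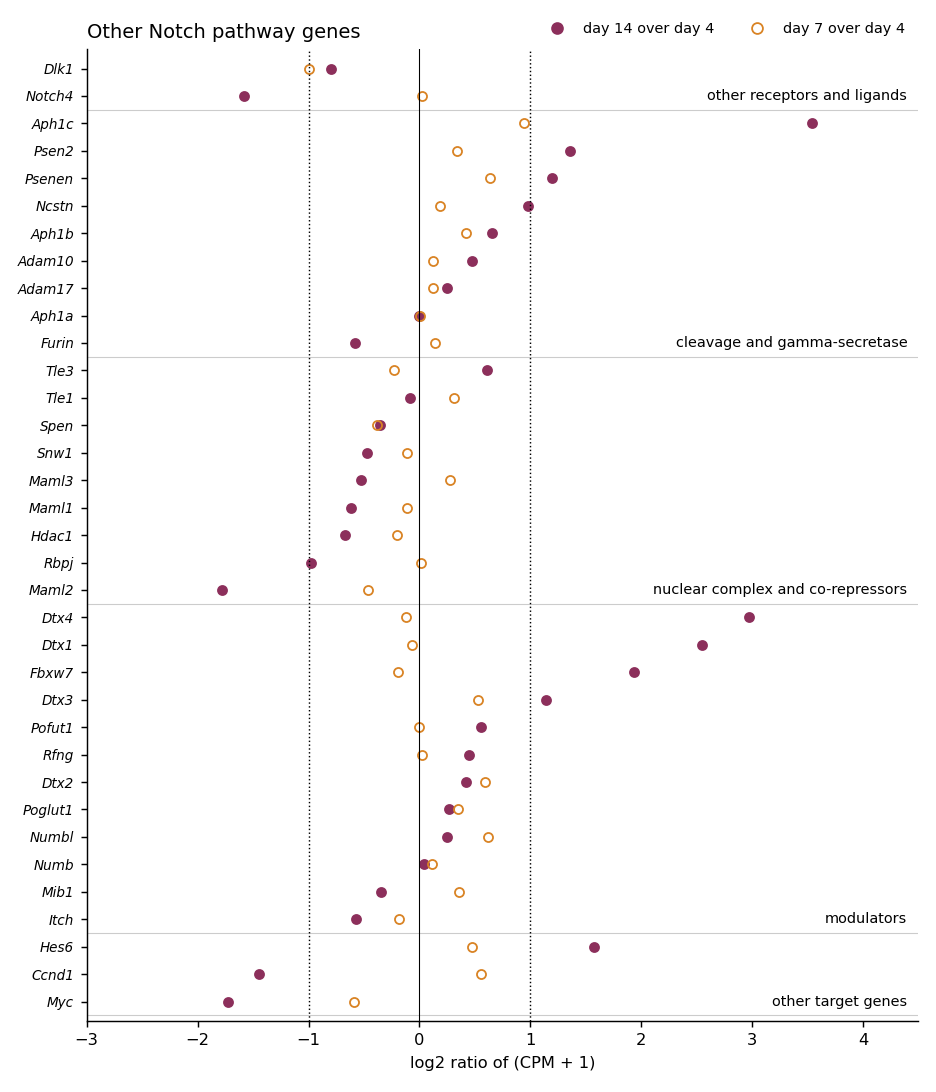
Log2 ratio of (CPM + 1) for Notch pathway genes outside the members that are reported here and had enough UMIs, grouped by role, for day 14 over day 4 (filled) and day 7 over day 4 (open), 1 library per day. Dotted lines mark 2-fold; all open points lie within them, and 8 filled points lie beyond 2-fold higher, with Aph1c, Dtx4 and Dtx1 among them.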

How the data were processed

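Drop-seq libraries of days 4, 7 and 14 were measured, 1 per day. Per the study's methods, STAR alignment to GRCm38 was followed by UMI counting with the Drop-seq tools, and the authors kept cells with at least 500 genes and at most 10% mitochondrial transcripts. The deposited values were raw UMI counts. The merged table was used, with 495 columns of other samples left out, and its counts equalled those of the day tables for every kept cell. Counts were summed per day or class and given as CPM, with exact 95% Poisson intervals and exact conditional intervals for ratios. A call needed at least 20 UMIs and a 2-fold ratio after adding 1 CPM. With 1 library per day no p-value was computed. Cells were clustered in Seurat 5.3.0 (R 4.3.3; 2000 variable genes, 20 components, resolution 0.8) without the members and pathway genes. Clusters were named by markers, with naming thresholds set after the clusters were seen. Doublets were not removed in the main analysis. The named genes were the 9 members, the pathway genes past 2-fold or belonging to γ-secretase or RBPJ complexes, and the 3 most similar genes. Some pathway genes that this rule names are not reported here, though list counts include them. Members and lists were chosen with earlier results of these data known. Other work used Python 3.11.15, numpy 2.4.6, scipy 1.17.1 and pandas 2.3.3. On simulated counts with 200 of 12837 genes changed 4-fold, the day 7 over day 4 comparison recovered 97.0% of the lower and 100% of the higher genes. The simulated counts held counting error only, so they check the calculation and say nothing about differences between single libraries. Alternatives covered scaling, cell weighting, pseudocount, UMI minimum, thinning, doublets, cell filters and cluster resolution.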

Additional observations from a re-analysis of the deposited data

Results flagged for a closer look

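Signal of member genes was also present in barcodes that the study's cell filter had removed, which enter no comparison above. The 320 barcodes removed on day 4 held 14 UMIs of Jag1, 17 of Hes1 and 7 of Heyl, or 87.1, 106 and 43.5 CPM. The 229 barcodes removed on day 7 held 7 UMIs of Notch2, 6 of Jag1, 5 of Hes1 and 4 of Heyl. The 327 barcodes removed on day 14 held 5 UMIs of Jag1. Each of these counts is above the limit of detection set at 3 UMIs, and no control barcodes were at hand.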

How the results depend on the processing

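No paired analysis was possible because each day had 1 library. Of 355 alternative values, 337 stayed within the interval of the reported value or near its count, 18 moved and no called value changed direction. The 337 include log2 ratios without a UMI minimum, which equal the reported ones by construction. For genes with few UMIs the intervals are wide, so staying within them says little. The count of members past 2-fold stayed at 1 for day 7 over day 4 under 10 alternatives and at 3 for day 14 over day 4 under 9. For day 14 over day 7 it was 1 in place of 2 with median-of-ratios scaling, with equal weight per cell and with a pseudocount of 5 CPM, each of which left Heyl alone. Median-of-ratios scaling moved the median of all genes in that comparison from -0.13 to -0.02. Within proliferating cells the count was 2 in place of 1 with no UMI minimum, from Notch3 with 3 and 0 UMIs. The log2 ratio of Heyl ranged from -1.79 to -1.30, from -2.29 to -1.49 and from -3.73 to -2.88 for day 7 over day 4, day 14 over day 7 and day 14 over day 4. The target ratio in cells with a Notch3 UMI was 0 on day 4 and on day 7 after thinning to 1500 UMIs, with 6 and 3 such cells left, and day 14 had no such cell. Adding the removed barcodes could not be run within proliferating cells, since those barcodes have no class. Depth limits Notch1, Notch3, Hey1, Hey2 and Nrarp most, and day 14 throughout.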
